A study of Mus musculus with 30 samples.

Results

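Histone lysine methyltransferases and demethylases were followed across 6 groups of mouse whole-brain libraries. The 45 genes were named in a list that was matched by symbol to a table of 19737 genes, with no threshold on their values: 29 methyltransferases and 16 demethylases, grouped by the lysine on which they chiefly act. All 45 were present and passed the filter on low values in every comparison. The mice were C57BL/6N males, either wild type (WT) or heterozygous (HT) for a protein-truncating Arid1b allele made by CRISPR at exon 5. They were bred from HT fathers and WT mothers. The study's methods give the allele as a deletion with TT inserted, while its first figure describes an insertion of TT. Arid1b encodes a DNA-binding subunit of the BAF chromatin remodelling complex, and the allele is carried in the germline, so every cell type holds it. The P10 HT and P10 WT groups were taken at postnatal day 10 and received no treatment. The 4 other groups were taken at postnatal day 120: in HT-Flx and WT-Flx, dams drank fluoxetine, a serotonin reuptake inhibitor, at 0.1 mg/ml in water with 0.2% saccharin from postnatal day 3 to 21, so that pups received it through milk, and in HT-Veh and WT-Veh dams drank the saccharin water alone. Each group held 5 libraries. The labels do not tie libraries to litters, so the p-values measure the spread between these libraries, and where the libraries share a dam was not known.

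Methyltransferases place and demethylases remove methyl groups on histone lysines, and the outcome depends on the site. Methylation of lysine 4 of histone H3 (H3K4) marks promoters and enhancers in use, H3K36 and H3K79 methylation mark transcribed gene bodies, H3K9 and H3K27 methylation mark silent chromatin, and H4K20 methylation serves chromosome condensation and compaction. Polycomb repressive complex 2 (PRC2) writes H3K27 methylation through either Ezh2, which is abundant in dividing progenitors, or Ezh1, which is retained in post-mitotic cells. Most of these enzymes are found in both neurons and glia, and loss of a single copy of several of them, among them KMT2D, EHMT1, SETD5, NSD1 and KMT5B, causes human neurodevelopmental syndromes.

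Promoter sequences were available for 31 of the 45 members (43 windows, RefSeq, GRCm38.p6). Those of 4 genes are shown because these were among the members that changed most with age, Ezh2 and Suv39h2 being lower and Ezh1 and Kmt2d higher at P120. Each is the stretch before the RefSeq start site that holds no annotated exon, and capitals mark the CCAAT box (CCAAT) and the GC box (GGGCGG), searched on both strands. All 4 genes lie on the minus strand, at chr6:47595059-47595183, chr11:101226464-101226713, chr2:3475032-3475236 and chr15:98871206-98871455 in the order printed.
Ezh2: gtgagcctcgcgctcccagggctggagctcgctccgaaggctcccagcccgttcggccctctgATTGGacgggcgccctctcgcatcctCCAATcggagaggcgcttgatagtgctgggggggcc
Ezh1: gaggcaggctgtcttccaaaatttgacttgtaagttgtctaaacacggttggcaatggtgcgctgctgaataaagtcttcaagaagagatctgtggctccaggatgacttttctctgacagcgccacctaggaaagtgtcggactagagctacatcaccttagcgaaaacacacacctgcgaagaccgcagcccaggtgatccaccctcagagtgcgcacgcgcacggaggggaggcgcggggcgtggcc
Suv39h2: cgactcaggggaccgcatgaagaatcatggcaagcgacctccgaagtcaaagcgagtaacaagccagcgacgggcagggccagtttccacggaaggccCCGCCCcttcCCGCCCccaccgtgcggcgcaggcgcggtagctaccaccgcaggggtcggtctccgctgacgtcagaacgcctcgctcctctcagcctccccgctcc
Kmt2d: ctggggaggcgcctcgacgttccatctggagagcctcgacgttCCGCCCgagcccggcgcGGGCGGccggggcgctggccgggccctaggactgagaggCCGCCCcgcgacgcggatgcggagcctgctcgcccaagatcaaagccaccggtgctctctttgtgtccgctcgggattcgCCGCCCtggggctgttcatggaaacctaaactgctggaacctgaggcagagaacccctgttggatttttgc
The Ezh2 stretch held 2 CCAAT boxes in opposite orientations, the Suv39h2 stretch 2 GC boxes and the Kmt2d stretch 4 GC boxes, whereas the Ezh1 stretch held neither motif. Over the full 250 bases before each start, members' windows were rich in CpG, with a median of 23 CpG against 6 for all 32851 windows in the table. A GC box was present in 67.4% of members' windows and in 32.7% of all windows, and a CCAAT box in 32.6% and 33.8%. A match is a description of these letters alone.

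The targeted gene was examined first. Arid1b was at 2162 to 2334 normalized counts in P10 HT and at 3164 to 3309 in P10 WT, with a log2 fold change of −0.55 (adjusted p = 1.5e-05, limma). At P120, the library labelled HT-Veh 2 was at 3361, within the WT range, and the library labelled WT-Veh 2 at 2320, within the HT range. Both kept their labels. They were left out of the main comparison of HT-Veh with WT-Veh, and the other comparisons of vehicle groups are given with and without them. The summed normalized counts per library ran from 31578614 to 41801037. Libraries also differed in the balance of GC-rich and AT-rich transcripts, measured as the mean log2 difference between the top and bottom deciles of all genes by transcript GC content, relative to the average library of the same age. This contrast was 0.56 to 1.33 in HT-Flx and −0.81 to −0.62 in WT-Flx, ran from −0.78 to 0.84 within HT-Veh and from −0.53 to 0.46 within WT-Veh, and stayed between −0.35 and 0.09 at P10. Members had transcripts of 39.6% to 60.8% GC (median 49.4%, against 49.7% for all genes). Their transcripts were longer, with a median of 6487 bases against 2863 for all genes. Their values are therefore also given after a correction of each library for GC content and length.

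Per kilobase of transcript, the mean over the 6 group means placed Ehmt2 highest, at 2200 normalized counts per kilobase, followed by Smyd2 (983) and Kdm4b (830.0). Ehmt2 (G9a) writes mono- and dimethylation of H3K9, and Smyd2 is a MYND-domain methyltransferase with histone and non-histone substrates. Setd7 and Dot1l, the only known H3K79 methyltransferase, followed at 778 each, and the ranges of their group means overlapped (487 to 1008 and 699 to 854). The lowest levels were those of Suv39h2 (29.2), Setdb2 (38.5), Kdm1b (88.9) and Ezh2 (95.2), again in normalized counts per kilobase. The map of all members shows these genes in every library, with the P10 libraries apart from the P120 libraries in several rows.

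**Figure D1:**
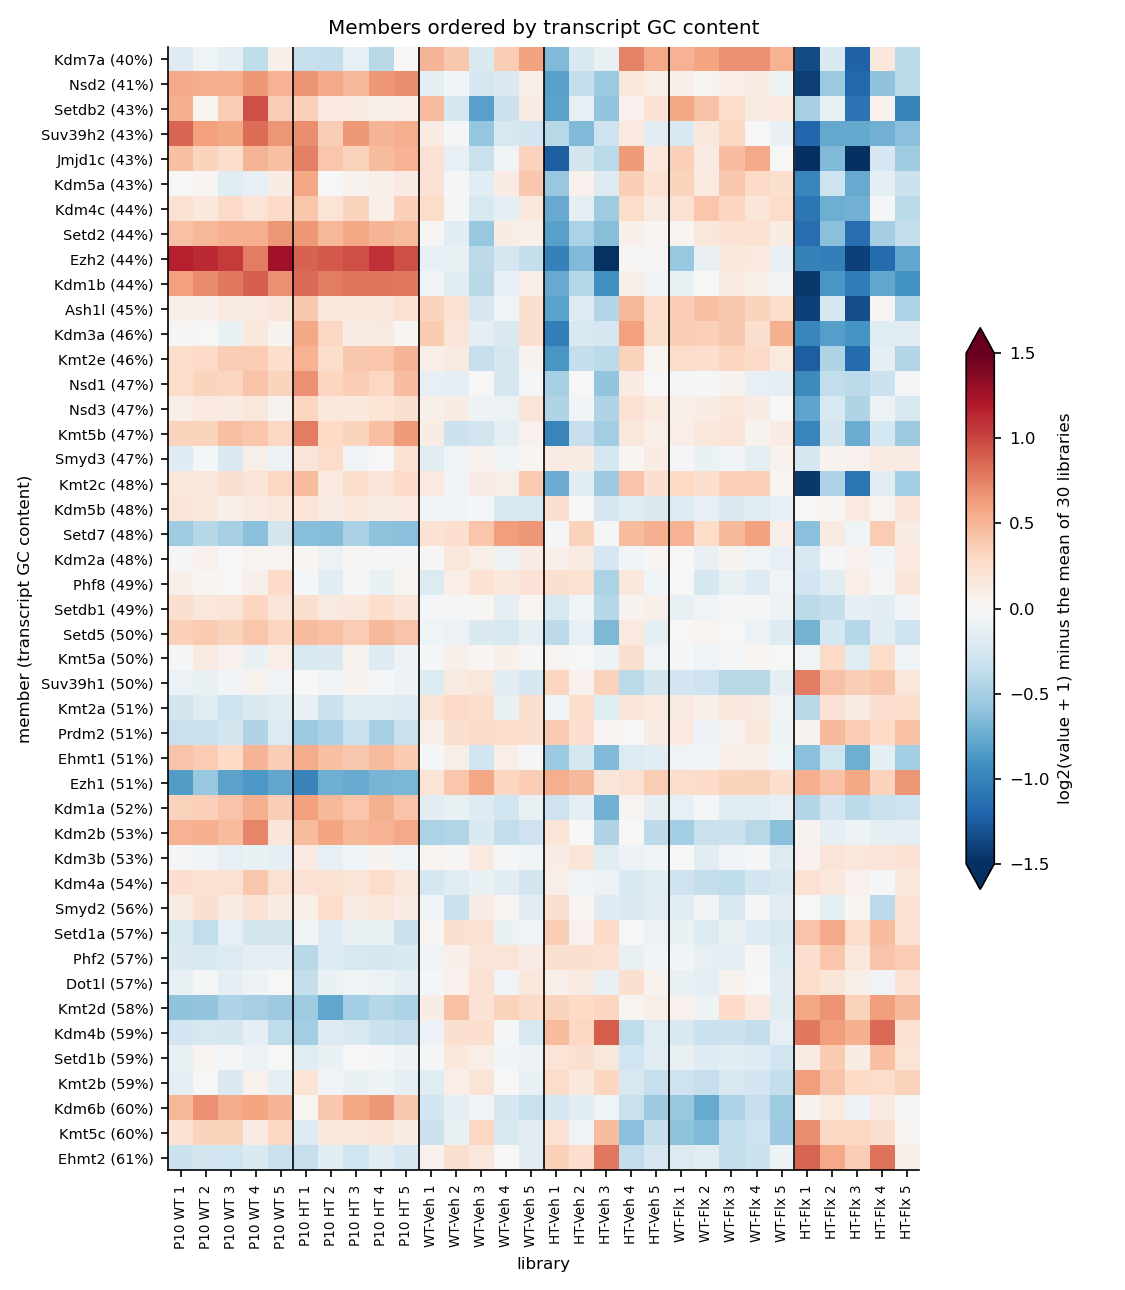
Log2(value + 1) of the 45 members (rows, ordered by transcript GC content) in 30 libraries (columns, grouped by condition), each minus the mean of that member over the 30 libraries; colours saturate at ±1.5. Ezh2, Kdm1b and Suv39h2 stand high in the 10 P10 libraries and Ezh1 low, while in HT-Flx the upper, AT-rich rows are low and the lower, GC-rich rows high.

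The comparison of WT-Veh at P120 with P10 WT asked how expression of these enzymes changed between the pup and adult brain. Of the 45 members, 30 (66.7%) passed the test, 10 higher and 20 lower at P120, where 58.2% of all 17908 genes tested were called, 28.8% higher and 29.4% lower. Among genes with a mean of at least 100, 4315 of 13157 were called higher and 4198 lower, and 10 and 21 of 45 members. The median log2 fold change of members was −0.07, against −0.01 for all genes. In 24 members the 2 groups did not overlap (45.6% of all genes). Of 6 H3K4 writers 3 were called higher and none lower, and of 5 H3K36 writers none was called higher and 3 lower. With the GC and length correction these counts were 2 higher and 1 lower for H3K4 (Setd1b, −0.16, adjusted p = 0.018, limma) and 1 higher and 3 lower for H3K36 (Ash1l, 0.25, adjusted p = 2.0e-03), and no test compared the classes. The comparison also holds the saccharin water that the dams of the P120 groups alone had drunk and any difference in library preparation between the ages, which cannot be told apart from age. Fold changes are on the log2(value + 1) scale after the libraries compared were rescaled to a common median, and values are printed as deposited.

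**Figure D2:**
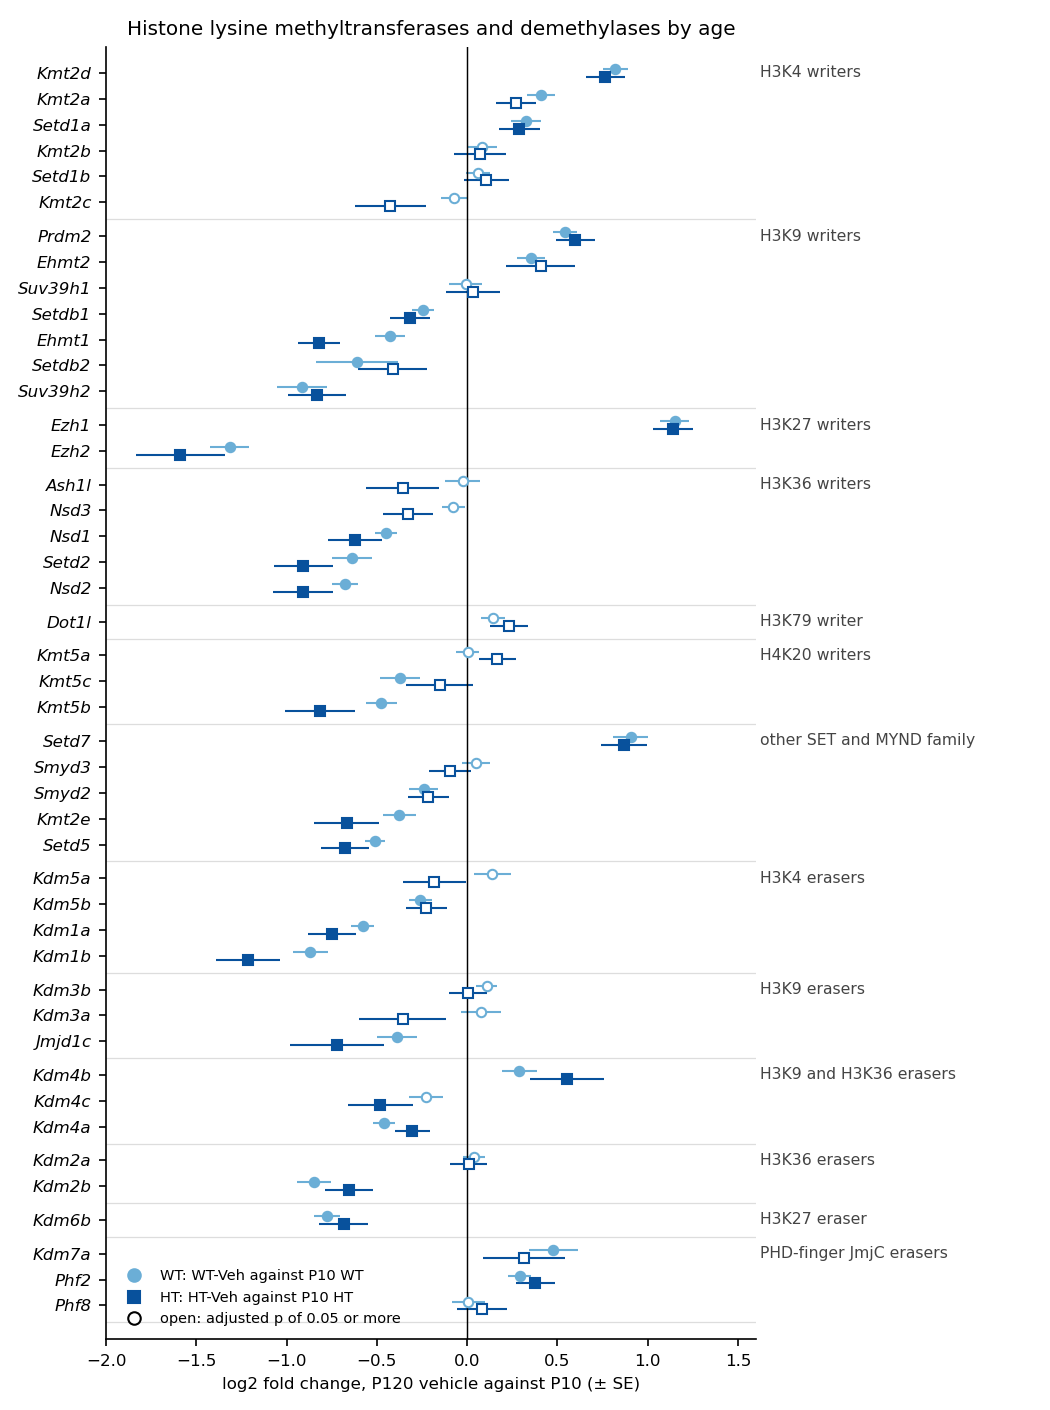
Log2 fold change (± SE) of P120 vehicle against P10 for each member by class, in WT (light circles) and HT (dark squares), 5 libraries per group; filled symbols passed the adjusted threshold of 0.05. Ezh1 lies furthest to the right and Ezh2 furthest to the left in both genotypes.

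The H3K27 writers changed most, and in opposite directions. Ezh2 was at 506, 491, 470, 385 and 540 normalized counts in P10 WT and at 207, 209, 172, 190 and 176 in WT-Veh. Every P10 library was thus higher than every WT-Veh library, and the log2 fold change was −1.31 ± 0.11 (SE, n = 5 and 5, adjusted p = 4.1e-07, limma). Ezh1 was at 1210, 1459, 1237, 1193 and 1257 in P10 WT and at 2496, 2880, 3228, 2710 and 2790 in WT-Veh, again without overlap, with a log2 fold change of 1.15 ± 0.08 (adjusted p = 1.3e-07). Both kept these changes after the GC and length correction, at −1.11 for Ezh2 and 1.20 for Ezh1. Within a library, the ratio of Ezh1 to Ezh2 per kilobase was 1.54 to 2.05 in P10 WT and 7.97 to 12.4 in WT-Veh. Kdm6b (JMJD3), the member classed as an H3K27 eraser, fell as well (log2 fold change −0.78 ± 0.07, adjusted p = 1.4e-06, limma). It was at 2941 to 3369 normalized counts in P10 WT and at 1651 to 2034 in WT-Veh. Kdm7a, which also removes H3K27 methylation but is classed apart, rose by 0.48, or by 0.94 after the GC correction.

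Among the H3K4 writers, Kmt2d, an enhancer monomethyltransferase, was at 4804, 4867, 5310, 5204 and 5015 normalized counts in P10 WT and at 7893, 9955, 8512, 9271 and 8932 in WT-Veh. The groups were far apart, with a log2 fold change of 0.82 ± 0.07 (adjusted p = 5.5e-07, limma). Kmt2a rose by less (0.41 ± 0.08, adjusted p = 5.0e-04), and Setd1a, the catalytic subunit of a SET1 complex, had a log2 fold change of 0.33 that fell to 0.13 after the GC correction and no longer passed (adjusted p = 0.09). Kmt2c, the paralog of Kmt2d, was at −0.07 and did not pass (adjusted p = 0.43). Of the 4 H3K4 erasers 3 were called lower and none higher, where 29.4% and 28.8% of all genes were. With the GC correction 2 were called lower and 1 higher. Kdm5b went from −0.26 to −0.08 (adjusted p = 0.39, limma) and Kdm5a from 0.14 to 0.58 (adjusted p = 1.3e-05). Kdm1b (LSD2), a flavin-dependent demethylase, was at 617, 656, 697, 746 and 646 in P10 WT and at 390, 357, 300.0, 368 and 431 in WT-Veh, with no overlap (−0.87 ± 0.10, adjusted p = 7.1e-06). Its paralog Kdm1a (LSD1), part of the CoREST complex, fell by 0.58 on the log2 scale (adjusted p = 5.4e-06).

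Of the 7 H3K9 writers, 2 rose and 4 fell, although the call of Setdb2 (−0.61 ± 0.23, adjusted p = 0.033, limma) was lost when any 1 of 5 libraries was left out (P10 WT 1 or 4, or WT-Veh 2, 3 or 4, adjusted p from 0.061 to 0.090), and that of Setdb1 (−0.24) with the GC correction (−0.10, adjusted p = 0.11). Suv39h2, a trimethylating enzyme of heterochromatin, was at 216, 180.3, 177, 212 and 186 normalized counts in P10 WT and at 128, 117, 78.2, 99.2 and 96.3 in WT-Veh (log2 fold change −0.91 ± 0.14, adjusted p = 9.0e-05, limma). Its paralog Suv39h1 was at −0.01 ± 0.09 and did not pass (adjusted p = 0.95). Ehmt1 (GLP) fell by 0.43 on the log2 scale (adjusted p = 5.4e-04), while its dimer partner Ehmt2 rose by 0.35 (adjusted p = 1.3e-03), a rise that came to 0.06 after the GC correction (adjusted p = 0.33). Prdm2 (RIZ1) rose by 0.54 ± 0.07 (adjusted p = 1.5e-05), from 1852 to 2198 in P10 WT to 2683 to 3093 in WT-Veh. Among the H3K9 erasers, Jmjd1c was called lower (−0.39 ± 0.11, adjusted p = 8.8e-03), but its estimate turned to 0.05 with the GC correction (adjusted p = 0.52). Kdm4a, which acts on H3K9 and H3K36, fell by 0.46 (adjusted p = 3.8e-05), whereas its paralog Kdm4b was called higher at 0.29 (adjusted p = 0.02) and came to −0.0032 with the correction (adjusted p = 0.97). The call for Kdm4b was also lost without P10 WT 5 (adjusted p = 0.054) or without WT-Veh 2 (adjusted p = 0.055).

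The 3 H3K36 writers that fell were Nsd2 (−0.68 ± 0.07), Setd2 (−0.64 ± 0.11), the trimethylating enzyme that travels with RNA polymerase II, and Nsd1 (−0.45 ± 0.06), with adjusted p of 3.9e-06, 3.0e-04 and 3.6e-05. Nsd2 was at 5508 to 6042 normalized counts in P10 WT and at 3219 to 4133 in WT-Veh. Nsd3 (−0.08) and Ash1l (−0.02) did not pass (adjusted p = 0.33 and 0.85). After the GC correction the change of Nsd2 was −0.24 and that of Setd2 −0.36, both still past the threshold. Of the H3K36 erasers, Kdm2b, which also recruits a variant Polycomb complex to CpG islands, was at 1928, 1946, 1877, 2237 and 1521 in P10 WT and at 970.0, 994, 1154, 1041 and 1083 in WT-Veh (−0.85 ± 0.09, adjusted p = 6.5e-06), while Kdm2a was at 0.04 (adjusted p = 0.62).

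Among the remaining classes, Setd7, a monomethyltransferase of H3K4 and of several non-histone proteins, was at 3787, 4072, 3878, 3564 and 4538 normalized counts in P10 WT and at 6391, 6529, 7338, 8490 and 8590 in WT-Veh. All WT-Veh libraries were higher, with a log2 fold change of 0.91 ± 0.10 (adjusted p = 4.5e-06, limma). Setd5, which is required for normal neuronal gene expression and cognition, fell by 0.51 (adjusted p = 5.1e-06). The H4K20 writers Kmt5b and Kmt5c fell by 0.47 and 0.37 (adjusted p = 3.4e-04 and 0.01), while Kmt5a, the monomethyltransferase, was at 0.00220 (adjusted p = 0.98). Dot1l was at 0.14 ± 0.07 and did not pass (adjusted p = 0.08), though it did without WT-Veh 1 (0.17, adjusted p = 0.041) or WT-Veh 4 (0.18, adjusted p = 0.044). Kdm7a, which removes H3K9 and H3K27 methylation, rose by 0.48 ± 0.14 (adjusted p = 8.8e-03), with WT-Veh 3 at 1254 inside the P10 WT range of 1118 to 1537. Its change was 0.94 after the GC correction (adjusted p = 4.5e-07). With that correction 28 members were called (59.6% of all 17897 genes), 11 higher and 17 lower, of which 6 and 16 were called in the same direction without it. Ash1l, Kdm2a, Kdm3a, Kdm5a and Smyd3 were called higher, and Setd1b lower, with the correction alone. The calls lost with it were those of Ehmt2, Kdm4b, Phf2 and Setd1a on the higher side and Jmjd1c, Kdm5b, Kmt2e and Setdb1 on the lower side.

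**Figure D3:**
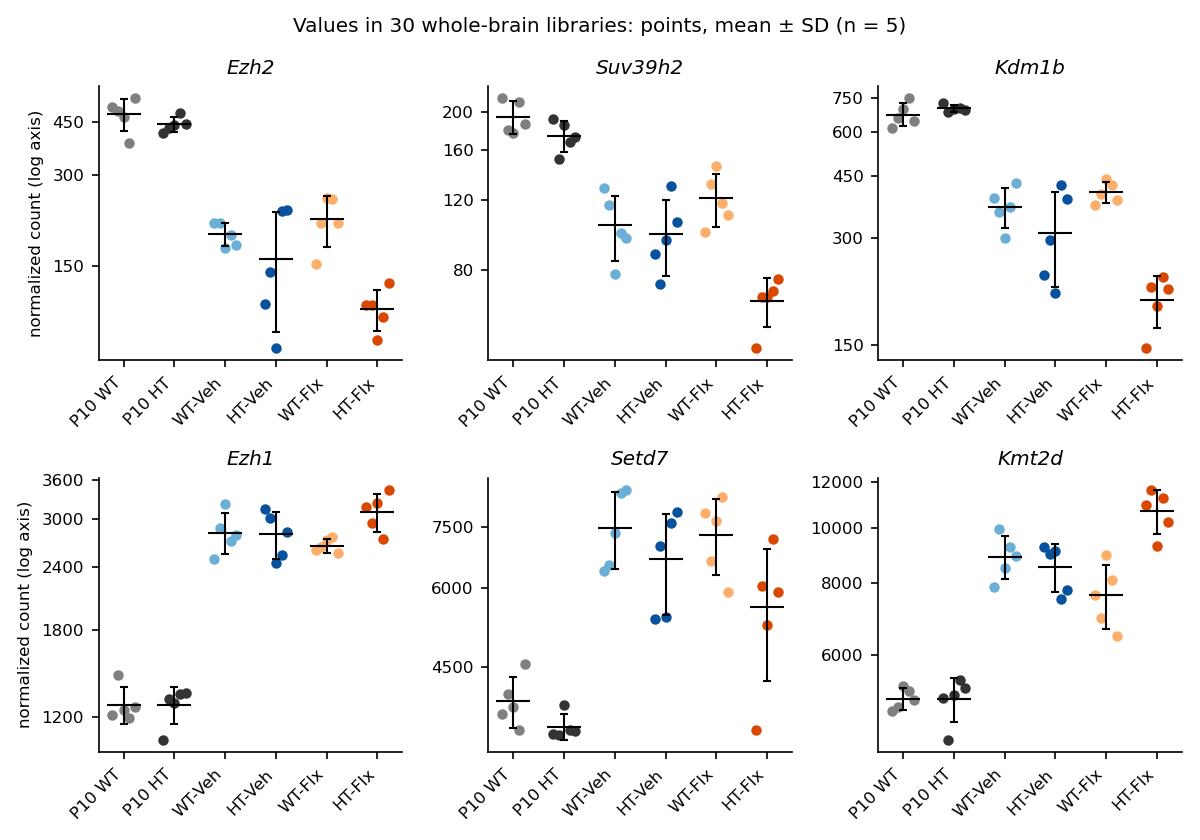
Normalized counts (log axis) of 6 members in each library by group, with mean ± SD (n = 5). Ezh2, Suv39h2 and Kdm1b are lower in every P120 group than at P10, with the lowest group mean in HT-Flx, and Ezh1, Setd7 and Kmt2d are higher in the vehicle groups than at P10, with HT-Flx 1 at the P10 level for Setd7.

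In HT mice, HT-Veh against P10 HT gave 24 of 45 members past the threshold (53.3%, against 51.1% of all 17972 genes), 7 higher (25.9% of all genes) and 17 lower (25.3%). In 19 members the groups did not overlap (40.0% of all genes). Ezh1 was again the highest, at 1.14 ± 0.11 (adjusted p = 3.8e-06, limma), and Ezh2 the lowest, at −1.59 ± 0.25 (adjusted p = 1.8e-04), on the log2 scale. Ezh2 was at 416, 429, 443, 483 and 444 normalized counts in P10 HT and at 112, 142, 79.8, 229 and 229 in HT-Veh, so the adult HT libraries were more spread than the adult WT libraries. Kdm1b fell by 1.21 ± 0.18, Nsd2 by 0.91 ± 0.17, Setd2 by 0.91 ± 0.16 and Suv39h2 by 0.83 ± 0.16. On the higher side, Setd7 rose by 0.87, Kmt2d by 0.77 and Prdm2 by 0.60. With the GC correction Suv39h2 came to −0.34 (adjusted p = 0.045, limma) and Kmt2d to 0.39 (adjusted p = 0.0080). Prdm2, at 0.63, and Ezh1, at 1.19, were not reduced by it. Kdm4b was called at 0.55 (adjusted p = 0.037), but the call was lost after the GC correction, at 0.10 (adjusted p = 0.31), and when any 1 of 7 of the 10 libraries was left out (P10 HT 1, 3, 4 or 5, or HT-Veh 1, 2 or 3, adjusted p from 0.055 to 0.084). Setd1a, Setdb1, Jmjd1c, Kdm4a and Kdm4c likewise lost their calls in HT when single libraries were left out. Without HT-Veh 2, 5 members were higher and 15 lower (4132 and 4094 of all 17995 genes). In WT without WT-Veh 2, 9 were higher and 18 lower (4975 and 5040 of all 17918 genes).

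The 2 genotypes were measured in separate animals, and 7 members rose with age in both (15.6%, against 23.0% of all 17714 genes tested in both) and 16 fell in both (35.6%, against 22.1%). With the GC correction, 59.6% of all genes were called in WT and 56.2% in HT. Called in both genotypes without and with it were 4 members that rose (8.89%, against 18.8% of all 17703 genes) and 13 that fell (28.9%, against 16.6%). Those that rose were Ezh1, Kmt2d, Prdm2 and Setd7, and those that fell were Ehmt1, Ezh2, Kdm1a, Kdm1b, Kdm2b, Kdm4a, Kdm6b, Kmt5b, Nsd1, Nsd2, Setd2, Setd5 and Suv39h2. When all 20 P120 libraries were set against all 10 P10 libraries, 3 members lay wholly above (Ezh1, Kmt2d, Prdm2) and 11 wholly below (Ehmt1, Ezh2, Kdm1a, Kdm1b, Kmt5b, Nsd1, Nsd2, Setd2, Setd5, Setdb1 and Suv39h2), 31.1% of members against 23.8% of all 17915 genes (12.0% above and 11.8% below). No member differed in its age change between the genotypes past the adjusted threshold, where 0.0% of all genes did (limma interaction term). At an unadjusted p under 0.05 there was 1 member of 45, Ehmt1 (−0.39 ± 0.14, adjusted p = 0.88), against 3.37% of all genes. Without HT-Veh 4 there were 11 members (1846 of all 17940 genes), and without HT-Veh 5 there were 4 (1219 of all 17952 genes). Ehmt1 fell by 0.82 in HT and by 0.43 in WT. Next came Kdm1b (−0.35) and Nsd3 (−0.25), at the same adjusted p.

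Cell type markers moved with age. All 16 proliferation markers were measured, 15 of them fell and none rose in WT (median log2 fold change −3.06), and their summed normalized counts ran from 6269 to 9022 in P10 WT and from 1994 to 2407 in WT-Veh. Of 12 markers of immature neurons and progenitors, 11 fell and none rose (median −1.77). Mature oligodendrocyte markers rose in 7 of 12 and fell in 1, microglia markers rose in 7 of 10 and fell in 1, astrocyte markers rose in 6 of 10 and fell in 1, neuron markers rose in 5 of 10, choroid plexus markers rose in 6 of 8 and fell in 1, and blood cell markers fell in 3 of 6. No defining marker was at 0 in all libraries. In whole-brain libraries fewer cells of a type and less RNA per cell cannot be told apart, and the part of these shifts in the members' changes was not tested.

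Partners of the enzymes were counted in the same comparison. Among 10 PRC2 partners, 3 rose and 2 fell: Epop, an elongin-binding partner, rose by 2.31 ± 0.10 (adjusted p = 3.1e-09, limma) and Jarid2, which brings PRC2 to chromatin, fell by 0.72 ± 0.08 (adjusted p = 6.5e-06). Among 8 CoREST partners of Kdm1a, 1 rose and 5 fell, and Rcor2 fell by 1.64 ± 0.12 (adjusted p = 2.0e-07). The 11 cofactors of the H3K4 writers gave 4 higher and 5 lower, with Pagr1a, a Kmt2c and Kmt2d complex subunit, at 1.75 ± 0.27 (adjusted p = 1.2e-04) and Psip1 at −0.53 ± 0.12. The 8 H3K9 readers and partners gave 2 higher and 5 lower, with Cdyl at 0.25 and Wiz, a partner of Ehmt1 and Ehmt2, at −0.74. Among 24 other genes of the same enzyme families, 6 rose and 8 fell, with Smyd5 at 0.48 and Smyd1 at −1.16.

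P10 HT against P10 WT asked whether loss of an Arid1b copy altered these genes in pups. No member passed the adjusted threshold, where 0.0224% of all 17896 genes did (limma). At an unadjusted p under 0.05 there were 10 members of 45 (22.2%, against 12.6% of all genes). That count was 4 to 6 when P10 HT 1 or P10 WT 1, 2, 3 or 5 was left out (1673 to 2076 of all genes). It was 5 without the intensity trend (2064 of all 17896 genes). The lowest p were those of Smyd3 (0.21 ± 0.08 on the log2 scale), Kmt5a (−0.17 ± 0.07) and Kmt5c (−0.18 ± 0.07), with adjusted p of 0.33, 0.34 and 0.36 by limma. Exact two-sided permutation p for these were 0.048, 0.040 and 0.040, where 5 against 5 allow no less than 0.0079. The 2 groups overlapped for each of the 3 genes, and P10 HT 1 stood apart in its GC contrast (−0.35, against −0.10 to 0.09 in the other P10 libraries). The ratio of Ezh1 to Ezh2 per kilobase was 1.72 to 2.02 in P10 HT, inside the WT range of 1.54 to 2.05. Summed blood cell markers were lower in P10 HT (5271 to 8455 normalized counts) than in P10 WT (10393 to 13185), and their part in the members' differences was not tested.

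HT-Veh against WT-Veh was compared in replicates 1, 3, 4 and 5 of each group, without the libraries labelled HT-Veh 2 and WT-Veh 2. No member passed (0.0% of all 17784 genes, limma), and none of the 45 had an unadjusted p under 0.05 (1.29% of all genes). Ehmt1 came closest, at 952, 884, 1210 and 1245 normalized counts in HT-Veh and at 1376, 1136, 1502 and 1378 in WT-Veh. The groups overlapped, and the log2 fold change was −0.34 ± 0.17 (exact two-sided permutation p = 0.086, where 4 against 4 allow no less than 0.029). Kmt2c was at −0.34 ± 0.25 and Setd7 at −0.24 ± 0.18. With all 5 and 5 libraries no member was called either, and Ehmt1 was again at −0.34 (adjusted p = 0.99).

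HT-Flx against HT-Veh and WT-Flx against WT-Veh asked whether early fluoxetine left a change in the adult brain. In HT no member passed (0.0% of all 17676 genes, limma), and 8 had an unadjusted p under 0.05 (17.8%, against 23.1% of all genes). That count ran from 3 without HT-Veh 5 (1280 of all 17625 genes) to 19 without HT-Veh 1 (6666 of 17707). It was 6 without HT-Veh 2 (3228 of all 17678 genes) and 24 with all P120 libraries in 1 fit (6961 of 17676). With the GC correction it was 4 (11.3% of all 17666 genes). It was also 4 without HT-Flx 1 or HT-Veh 4 (1723 and 1331 of all genes). Without HT-Flx 4, HT-Flx 5 or HT-Veh 3 it was 13 or 14 (4075, 4412 and 5978 of all genes). Kdm1b was at 147, 219, 193, 232 and 216 normalized counts in HT-Flx and at 236, 297, 211, 426 and 387 in HT-Veh. The highest HT-Flx libraries overlapped the lowest HT-Veh library, and the log2 fold change was −0.59 ± 0.21 (exact permutation p = 0.048, adjusted p = 0.22 by limma). Suv39h2 was at −0.54 ± 0.19 and Kmt2d at 0.32 ± 0.12. After the GC correction these came to −0.29, −0.12 and −0.04, and without HT-Veh 2 to −0.60, −0.63 and 0.34 (adjusted p = 0.26 each).

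In WT no member passed either (0.0% of all 17865 genes, limma), and 19 had an unadjusted p under 0.05 (42.2%, against 25.2%). With the GC correction 4 had (8.89%, against 10.5% of all 17854 genes). With all P120 libraries in 1 fit 6 had (1493 of all 17865 genes), and without WT-Veh 2 there were 14 (3787 of 17872). Kmt2b, which trimethylates H3K4, was at 3130, 3063, 3328, 3189 and 3036 normalized counts in WT-Flx and at 3426, 4160, 4459, 3867 and 3594 in WT-Veh. The groups did not overlap, and the log2 fold change was −0.30 ± 0.08 (exact permutation p = 0.0079, adjusted p = 0.08 by limma). Kdm6b was at −0.33 ± 0.09 and Ehmt2 at −0.29 ± 0.09. After the GC correction the 3 came to −0.04, −0.06 and −0.0054, and without WT-Veh 2 to −0.28, −0.31 and −0.24 (adjusted p of 0.20 each). All 11 members with a transcript GC content of at least 55% had a negative estimate in WT and a positive one in HT. Without WT-Veh 1, 2 members were called higher and 5 lower (276 and 1124 of all 17852 genes). Without WT-Veh 5, none and 2 were (69 and 555 of all 17864 genes).

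HT-Flx against WT-Flx gave the most calls: 38 of 45 members (84.4%, against 63.7% of all 17799 genes, limma), 17 higher (33.1% of all genes) and 21 lower (30.5%), and 32 without overlap between the groups (48.5% of all genes). Among genes with a mean of at least 100, 5428 of 13100 were called higher and 4268 lower, and 17 and 20 of 44 members. All 5 H3K36 writers were called lower, and of 6 H3K4 writers 4 were called higher and 1 lower, although the call of Nsd1 (−0.35, adjusted p = 0.040) was lost when any 1 of 7 of the 10 libraries was left out (HT-Flx 1, 2 or 3, or WT-Flx 1, 2, 3 or 4). With the GC and length correction no H3K36 writer was called in either direction, and of the H3K4 writers none was called higher and 3 lower (Kmt2c, Kmt2d and Setd1b). Direction followed the GC content of the transcript. All 11 members of at least 55% GC had a positive estimate (median 0.56) and all 10 members under 45% GC a negative one (median −0.90). Across the 45 members Pearson's r of fold change with GC content was 0.88, and across 17788 genes 0.74, a description over genes that share the same 10 libraries. The GC contrast of all genes did not overlap between the groups, so genotype and this contrast cannot be told apart here.

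**Figure D4:**
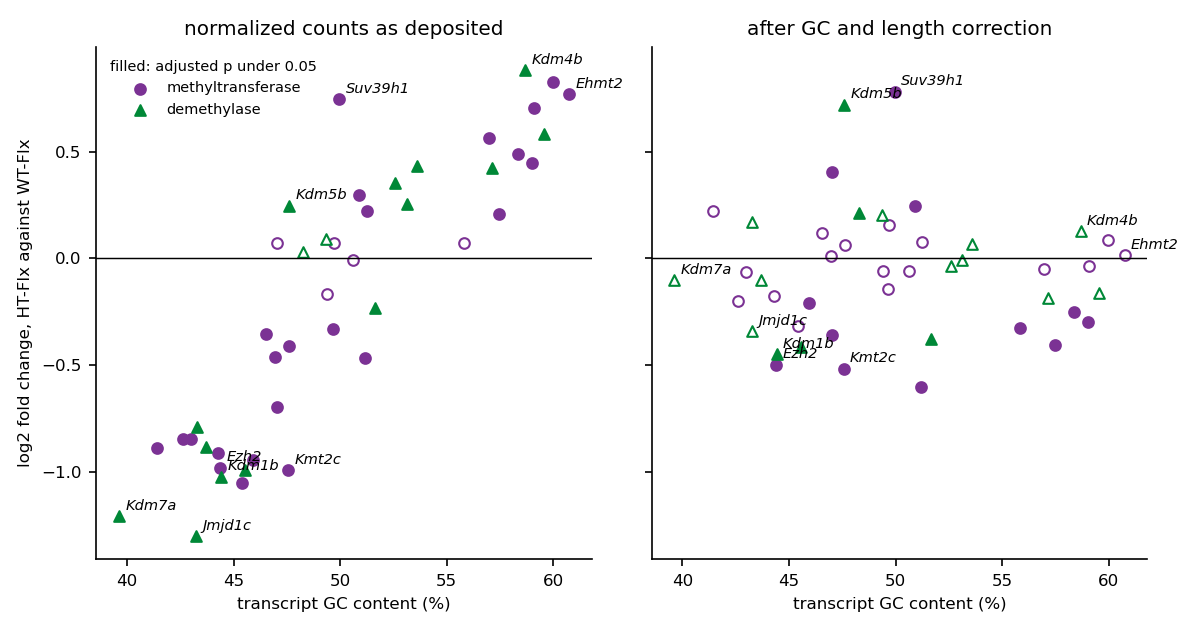
Log2 fold change of HT-Flx against WT-Flx for each of the 45 members against the GC content of its transcript (%), as deposited (left) and after correction of each library for GC content and length (right); filled symbols passed the adjusted threshold of 0.05. The slope on the left is absent on the right, where Suv39h1 and Kdm5b stand highest.

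Jmjd1c, an H3K9 demethylase family member, was at 828, 1691, 741, 2250 and 1841 normalized counts in HT-Flx and at 3410, 2897, 3673, 3964 and 2679 in WT-Flx. Every HT-Flx library was lower, and the log2 fold change was −1.30 ± 0.28 (adjusted p = 1.4e-03, limma), or −0.34 after the GC correction (adjusted p = 0.08). Kdm7a was at −1.21 ± 0.24 and came to −0.10, and Ash1l was at −1.05 ± 0.24 and came to −0.32. On the higher side, Kdm4b (0.88 ± 0.11) came to 0.13, Kmt5c (0.83 ± 0.12) to 0.09, Ehmt2 (0.77 ± 0.14) to 0.02 and Kmt2b (0.70 ± 0.08) to −0.04. None of these 7 passed after the correction.

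With the GC and length correction 17 members were called, 5 higher and 12 lower (37.8%, against 35.9% of all 17788 genes). Of these, 3 were also called higher without it (Suv39h1, Kdm5b, Prdm2) and 8 also called lower (Ehmt1, Ezh2, Kdm1a, Kdm1b, Kdm3a, Kmt2c, Kmt2e, Kmt5b). Kdm2a and Smyd3 were called higher and Smyd2 lower with the correction alone. The remaining 3 were called in opposite directions: Kmt2d went from 0.49 as deposited (adjusted p = 9.6e-04, limma) to −0.25 corrected (adjusted p = 0.046), Setd1b from 0.44 (adjusted p = 7.3e-04) to −0.30 (adjusted p = 0.016) and Dot1l from 0.21 (adjusted p = 0.038) to −0.40 (adjusted p = 3.5e-03). The call of Dot1l as deposited was lost when any 1 of 7 libraries was left out (adjusted p from 0.053 to 0.090, limma). In all, the estimates of 14 of the 38 called members changed sign with the correction. How many of all called genes changed sign was not counted, so this is not a trait shown to be particular to the members.

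Suv39h1, which trimethylates H3K9 in heterochromatin, was at 1935, 1541, 1457, 1494 and 1271 normalized counts in HT-Flx and at 924, 910.0, 850.2, 849 and 1031 in WT-Flx. The groups were well apart, at 0.74 ± 0.11 as deposited (adjusted p = 1.1e-04, limma) and 0.78 corrected (adjusted p = 5.2e-04). Its transcript has a GC content of 50.0%, near the middle of the members, yet its values also varied with the GC contrast of the library. Within HT-Veh, Suv39h1 was at 1415, 1185 and 1443 in libraries 1, 2 and 3 (contrast 0.84, 0.32 and 0.37). In HT-Veh 4 and 5 it was at 852 and 938 (contrast −0.78 and −0.66). The part of this contrast in its difference was not tested. Kdm5b, an H3K4 demethylase, was at 2371, 2405, 2610, 2397 and 2697 in HT-Flx and at 2048, 2162, 2029, 2100 and 2166 in WT-Flx, with log2 fold changes of 0.25 and 0.72 (adjusted p = 7.9e-03 and 9.5e-04). Ehmt1, of 51.2% GC, was at 905, 1137, 840, 1268 and 979 in HT-Flx and at 1345, 1355, 1500, 1470 and 1339 in WT-Flx, without overlap (−0.46 as deposited and −0.60 corrected, adjusted p = 2.9e-03 and 7.0e-04). Kdm1b was at 147 to 232 against 373 to 440 (−1.02 ± 0.13 and −0.45 corrected, adjusted p = 5.0e-05 and 1.9e-03), and Kmt2c at 1430 to 3494 against 4000 to 4982 (−0.99 ± 0.20 and −0.52 corrected).

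Ezh2 was at 111, 111, 84.7, 101 and 131 normalized counts in HT-Flx and at 152, 208, 253, 250.5 and 208 in WT-Flx. All HT-Flx libraries were lower, at −0.98 ± 0.16 as deposited (adjusted p = 2.4e-04, limma) and −0.50 corrected (adjusted p = 0.03). Ezh1 was at 0.22 ± 0.08 as deposited (adjusted p = 0.02) and 0.08 corrected (adjusted p = 0.39), and did not pass without HT-Flx 3, WT-Flx 1 or WT-Flx 5 (adjusted p from 0.054 to 0.057). The ratio of Ezh1 to Ezh2 per kilobase was 17.3 to 25.4 in HT-Flx, 7.14 to 11.3 in WT-Flx and 7.37 to 20.3 in HT-Veh. It was not corrected for GC content, which is 51.2% for Ezh1 and 44.4% for Ezh2. HT-Veh 1, 2 and 3, of positive GC contrast, were at 18.7, 14.1 and 20.3. HT-Veh 4 and 5, of negative contrast, were at 7.37 and 8.16. Proliferation marker sums were 1849 to 2509 in HT-Flx and 2062 to 2260 in WT-Flx, overlapping ranges, and 1 of 14 tested markers was called higher and 6 lower. Blood cell markers were called higher in 3 of 6 and lower in none (sums of 8768 to 14375 in HT-Flx and 6314 to 8922 in WT-Flx), and microglia markers higher in 6 of 10 and lower in 1 (10972 to 17284 and 8937 to 10923). Mature oligodendrocyte markers were higher in 4 of 12 and lower in 5 (265040 to 292881 and 194336 to 256444), astrocyte markers higher in 4 of 10 and lower in 5 (80751 to 116755 and 116175 to 131497), and immature neuron and progenitor markers higher in 2 of 12 and lower in 3 (37152 to 40236 and 30099 to 32929.6). Neuron markers were higher in 3 of 10 and lower in 3, and choroid plexus markers higher in 2 of 8 and lower in 2, with overlapping sums. No defining marker was at 0 in all libraries of either group, and the part of these lists in the members' differences was not tested.

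A term for how the fluoxetine effect differed between HT and WT, fitted to the 20 adult libraries, gave 13 of 45 members past the threshold (28.9%, against 27.3% of all 17796 genes, limma), 9 higher (15.8% of all genes) and 4 lower (11.5%). Among the called members Kmt5c had the highest term (0.79 ± 0.24, adjusted p = 0.035) and Suv39h2 the lowest (−0.77 ± 0.24, adjusted p = 0.035), while Jmjd1c was lower still at −1.07 ± 0.43 and did not pass (adjusted p = 0.063). Suv39h1 (0.67), Kmt2b (0.67), Kdm6b (0.64) and Kmt2d (0.55) were among those higher, and Kdm1b (−0.73), Nsd2 (−0.70) and Kdm5a (−0.66) were the others that were lower. None of these calls remained after the GC correction (0.0% of all 17785 genes) or without both vehicle libraries numbered 2. None remained either when HT-Flx 1, WT-Flx 2, WT-Flx 3, HT-Veh 4, HT-Veh 5, WT-Veh 2, WT-Veh 3 or WT-Veh 4 alone was left out. In each of these runs no gene of any kind passed. Without HT-Veh 1 there were 14 members higher and 14 lower, and 4017 and 3650 of all 17812 genes. Suv39h1 kept its estimate with the GC correction (0.71, adjusted p = 0.14), while Kmt5c came to 0.15 and Suv39h2 to −0.14.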

How the data were processed

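The deposited table holds a normalized signal for 19737 genes in 30 libraries: per the labels and the study's methods, the authors prepared TruSeq libraries, mapped paired-end reads with Salmon 1.1.0 to GRCm38 with GC bias correction, summed transcripts to genes with tximport and divided counts by DESeq2 1.30.1 normalization factors. The values are not whole reads, so read depth is unknown and no counting interval is given. Whether both ages were normalized together is not given in the sources used here, so libraries were rescaled by median-of-ratios for comparisons of age. Identifiers were matched to symbols for 99.9% of genes.

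Genes with a mean of at least 10 were tested on log2(value + 1) with limma 3.58.1 in R 4.3.3, with an intensity trend, two-sided, adjusted by Benjamini-Hochberg over all tested genes at 0.05. Single genes also had exact two-sided permutation tests over all 252 splits of 5 against 5 (smallest p 0.0079) or 70 of 4 against 4. GC content and length came from the longest GENCODE vM21 protein-coding transcript of a gene, or the longest of any kind where it had none, and the correction subtracted each library's mean deviation in 100 bins of genes. Every per-sample column was used, though HT-Veh 2 and WT-Veh 2, whose Arid1b values go against their labels, were left out of the main comparison of HT-Veh with WT-Veh. Libraries of the same replicate number were not treated as pairs, since in no comparison did every same-numbered pair correlate above 0.1. Whether same-numbered libraries share a litter or a batch is not known. The scripts were tested on simulated data. The members and lists were chosen by gene name, with earlier results of these data known. Members named were, for age in WT, the largest change in each class and the 6 highest and 6 lowest past the threshold; elsewhere the 5 highest and 5 lowest past it, or the 3 with the lowest p where none passed; and sets of paralogs. Members named beyond that rule, Setd5, Kdm3a, Kmt2e, Setdb2, Setd1b and Smyd2 among them, were chosen after their values were seen.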

Additional observations from a re-analysis of the deposited data

Results flagged for a closer look

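In 15 of 192 groups of 5 (32 members examined), 1 library lay far from the 4 others, where chance gives about 1 in 20. In 6 of these it was the library P10 HT 1, whose GC contrast of −0.35 was the lowest at P10: Ash1l (5660 normalized counts), Kdm5a (2149) and Kmt2b (4472) were high in it, and Dot1l (4099), Ezh1 (1082) and Kmt5c (810.0) low. At P10, Ezh1 was also high in P10 WT 2 (1459), Kdm4a in P10 WT 4 (3392) and Setd7 in P10 HT 3 (3906). At P120, Kmt2a was low in WT-Veh 4 (7102) and in HT-Flx 1 (5760), Kmt5c high in WT-Veh 3 (1145), Prdm2 low in WT-Veh 1 (2683), and Smyd3 low in HT-Veh 3 (883) and in HT-Flx 1 (892).

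The effect of fluoxetine differed between HT and WT in 13 members by the interaction term of the limma fit (28.9%, against 27.3% of all 17796 genes). The term was positive for Kmt5c (0.79), Kmt2b (0.67), Suv39h1 (0.67), Kdm6b (0.64), Kmt2d (0.55), Setd1a (0.51), Setd1b (0.44), Phf2 (0.42) and Kdm4a (0.33), and negative for Suv39h2 (−0.77), Kdm1b (−0.73), Nsd2 (−0.70) and Kdm5a (−0.66), on the log2 scale. None of the 13 passed after correction for GC content and length, or without both vehicle libraries numbered 2. None passed either when HT-Flx 1, WT-Flx 2, WT-Flx 3, HT-Veh 4, HT-Veh 5, WT-Veh 2, WT-Veh 3 or WT-Veh 4 alone was left out. In each of these runs no gene of any kind passed.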

How the results depend on the processing

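Pseudocounts of 5 and 0.1, no filter, a minimum mean of 100, another scaling, no intensity trend, 1 fit of all P120 libraries, a GC and length correction, the replicate number as a block and leaving out libraries were tried. With the GC and length correction HT-Flx against WT-Flx had 5 members higher and 12 lower, and 5 and 8 with the block added, and the genotype by fluoxetine interaction had 0 either way with or without the block. Leaving out both vehicle libraries numbered 2 also gave 0 there, and without the intensity trend 2 were lower. With the GC correction or without both libraries numbered 2, the interaction called no gene of any kind. With 1 library left out, the interaction ranged from 0 to 14 higher and 0 to 14 lower, fluoxetine in WT from 0 to 2 higher and 0 to 5 lower (without WT-Veh 1 and WT-Veh 5), age in WT from 9 to 11 higher and 18 to 21 lower, age in HT from 5 to 8 and 14 to 21, and HT-Flx against WT-Flx from 15 to 17 and 19 to 22. Without HT-Veh 1 the interaction had 14 and 14 members, and 4017 and 3650 of all 17812 genes. Fluoxetine in WT called 276 higher and 1124 lower of all 17852 genes without WT-Veh 1, and 69 and 555 of 17864 without WT-Veh 5. Counts for both genotype comparisons in P10 and vehicle mice and for age by genotype stayed at 0 in every alternative run. After the GC and length correction, with or without the block, estimates of members called without or with it turned as follows. In age in WT these were Jmjd1c (0.0483), Kdm4b (−0.0032), Setd1b (−0.16) and Ash1l (0.25). In age in HT they were Kmt2b (−0.30), Setd1a (−0.0003), Setd1b (−0.27), Kdm5a (0.51) and Kdm4c (0.0081). In HT-Flx against WT-Flx they were Kmt2b (−0.0374), Kmt2d (−0.25), Setd1a (−0.047), Setd1b (−0.30), Nsd1 (0.12), Nsd2 (0.22), Nsd3 (0.0122), Dot1l (−0.40), Setd7 (0.063), Smyd2 (−0.32), Kdm5a (0.17), Kdm3b (−0.0074), Kdm2b (−0.034), Kdm6b (−0.16) and Phf2 (−0.19). In the interaction they were Kmt2d (−0.0776), Setd1a (−0.0319), Setd1b (−0.19), Nsd2 (0.28), Kdm5a (0.12) and Phf2 (−0.11). The cause was not tested.

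The replicate numbers were treated as shared names, and whether they mark shared litters or batches is not known. With the replicate block, fluoxetine in HT had 8 members lower (of all genes, 63 were higher and 1292 lower), and 0 with the GC correction added. The interaction had 11 members higher and 10 lower with the block (2953 and 2589 of all 17796 genes). In fluoxetine in HT, 3 of 5 libraries matched their own number best, with a mean correlation of 0.18 against −0.04 for other pairs. The block moved no other count by over 1.5 times. Read depth is unknown, so what depth limits could not be measured; for age in WT the widest errors were those of Setdb2 (0.23) and Suv39h2 (0.14), which are among the lowest members.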
